A study of Mus musculus with 47 samples.

Results

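The muscle isoforms of glycolytic and creatine enzymes, together with the widely expressed isoforms that carry out the same reactions, were followed by RNA-seq through the differentiation of C2C12 myoblasts. The members were 10 genes of the 45706 counted, Ckm, Ckb, Ckmt2, Eno1, Eno3, Pgam1, Pgam2, Pfkm, Pygm and Ampd1. They were chosen by gene symbol, and all 10 were found. Their levels were compared in every group of line, time, fraction and doxycycline (dox) treatment, and muscle isoforms were set against their ubiquitous partners within each library.

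Contracting muscle buffers its ATP with phosphocreatine through creatine kinase and refills it by breaking down glycogen and glucose. Differentiating myoblasts are known to exchange ubiquitous isoforms of these enzymes for muscle isoforms, for example the brain type creatine kinase Ckb for the muscle type Ckm. The muscle forms are encoded by separate genes, so a change of isoform can be read from RNA as a change in the ratio of a pair of genes.

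The study asked how the amount of the myogenic transcription factor MyoD1 shapes differentiation. The cells were C2C12, mouse myoblasts that grow indefinitely and fuse into myotubes once serum is withdrawn. The iMyoD1 derivative is a polyclonal population that keeps endogenous MyoD1 and adds a Halo-tagged MyoD1 transgene under a dox-responsive promoter, which is switched on in only some of the nuclei. The iCdh23 and iMcam derivatives carry inducible Cdh23 (a cadherin) and inducible Mcam (a melanoma cell adhesion molecule) in its place. PolyA RNA of 47 libraries in 16 groups was sequenced, with 3 biological replicates in each group except 1 group with 2.

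All groups were of C2C12 cells, and each dox group had a vehicle group given no dox. At 0 h the iMyoD1 cells were in growth medium and had received dox or vehicle for 24 h. At 24, 48 and 120 h dox or vehicle had been present since serum was withdrawn to start differentiation. At 120 h iMyoD1 was sequenced as the whole culture and as the fractions that passed or were held back by a 40 µm filter, which the labels call myoblast-enriched and myotube-enriched. The iCdh23 and iMcam lines were sequenced at 48 h only. The myoblast-enriched group with dox had replicates 2 and 3 only. The 12 libraries of 0 and 24 h carried no batch label, whereas the other 35 shared a single one, so a change from 24 to 48 h and a change of batch cannot be told apart.

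Levels are given as CPM, estimated counts divided by the library total and then scaled with TMM factors over all libraries. Library totals ranged from 15066338 to 50950674 counts (median 22837926). The summed level of 10 differentiated muscle markers (such as Myog, Myh3 and Acta1) was between 1.43 and 13.6 CPM in every library of 0 and 24 h and at least 4011 CPM in every vehicle library of 48 and 120 h. Markers of adipocytes, osteoblasts and macrophages summed to at most 0.25, 0.886 and 4.04 CPM in any library. The 3 fibroblast markers (Pdgfra, Dpt and Pi16) were not near zero, with a sum of 5.85 to 363 CPM, and the 4 markers of myoblasts and reserve cells (Myf5, Pax7, Cd34 and Sdc4) summed to between 166 and 620 CPM. The induced gene could be checked in part. Mcam was between 69.0 and 74.7 CPM with dox in iMcam and between 17.1 and 19.8 CPM without. Cdh23 in iCdh23 was between 426 and 568 CPM with dox and between 348 and 451 CPM without, ranges that overlapped, while no library of another line exceeded 57.2 CPM. Myod1 was not higher with dox at 24, 48 or 120 h in whole iMyoD1 cultures, and since the sources used here do not say whether transgene reads are counted under Myod1, it does not check the induction.

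MyoD1 binds DNA at E-boxes, short motifs read as CANNTG, of which CAGCTG is a form known to be bound by myogenic factors. Promoter windows of 300 bases (250 before to 50 after the RefSeq gene start, build GRCm38.p6) were found for 9 of the 10 members. The window of Ampd1 was not matched. On either strand, CAGCTG was found in the windows of Ckm, Ckmt2, Pgam2, Pygm and Eno3, and not in those of Ckb, Eno1, Pgam1 and Pfkm. The motif was present in 16.3% of 32851 mouse promoter windows, and the wider CANNTG, which includes it, in 72.3%. The windows of the muscle isoforms Ckm, Pgam2 and Pygm and of the ubiquitous partner Ckb are shown because the ratios and shares of these isoforms carry much of what follows. Capitals mark CAGCTG, and the Ckb window holds none.
Ckm, chr7:19410844-19411143, plus strand: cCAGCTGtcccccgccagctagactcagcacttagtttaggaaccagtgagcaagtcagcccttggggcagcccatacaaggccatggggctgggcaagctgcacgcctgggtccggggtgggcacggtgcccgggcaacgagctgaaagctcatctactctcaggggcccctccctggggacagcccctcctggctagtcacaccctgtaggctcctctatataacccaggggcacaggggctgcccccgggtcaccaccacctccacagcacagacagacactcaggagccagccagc
Pgam2, chr11:5803747-5804046, minus strand: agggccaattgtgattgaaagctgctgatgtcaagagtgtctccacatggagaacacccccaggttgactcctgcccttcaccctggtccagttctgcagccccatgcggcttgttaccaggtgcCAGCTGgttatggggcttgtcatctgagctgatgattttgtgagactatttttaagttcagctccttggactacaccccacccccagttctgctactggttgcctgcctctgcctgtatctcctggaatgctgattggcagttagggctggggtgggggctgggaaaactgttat
Pygm, chr19:6384158-6384457, plus strand: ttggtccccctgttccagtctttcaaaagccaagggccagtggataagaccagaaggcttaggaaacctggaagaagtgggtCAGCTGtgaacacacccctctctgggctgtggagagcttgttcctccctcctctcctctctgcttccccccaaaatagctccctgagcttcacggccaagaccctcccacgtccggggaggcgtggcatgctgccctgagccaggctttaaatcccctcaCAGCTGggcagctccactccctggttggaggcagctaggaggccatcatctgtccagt
Ckb, chr12:111672289-111672588, minus strand: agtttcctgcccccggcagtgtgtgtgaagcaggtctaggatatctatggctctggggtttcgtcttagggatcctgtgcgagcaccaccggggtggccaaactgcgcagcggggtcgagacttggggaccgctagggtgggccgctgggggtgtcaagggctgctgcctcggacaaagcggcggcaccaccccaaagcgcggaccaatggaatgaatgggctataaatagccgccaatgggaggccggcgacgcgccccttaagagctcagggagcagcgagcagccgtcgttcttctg
The CAGCTG of Ckm began 249 bases before the start and that of Pgam2 125 bases before it. Pygm had a CAGCTG at 168 and another at 8 bases before its start. A match of letters is a description only.

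In vehicle-treated iMyoD1 cells, the RNA of both cytosolic creatine kinases was highest at 48 h among the whole cultures. Ckm (ENSMUSG00000030399, chromosome 7) encodes the cytosolic creatine kinase of muscle. Its 3 replicates were at 0, 0 and 0.0499 CPM at 0 h, at 0.284, 0.213 and 0.312 CPM at 24 h, at 578, 553 and 520 CPM at 48 h, and at 223, 158 and 93.8 CPM at 120 h. Every 48 h library was thus above every whole culture of 120 h, and the libraries of 0 and 24 h were near zero. Ckm had at most 9 counts in any vehicle library of 24 h. It entered the 24 to 48 h test only through the 48 h group. Its fitted rise of 10.97 on the log2 scale therefore gives no precise size. From 48 to 120 h Ckm fell by 1.78 (SE 0.25, adjusted p = 0.00021, edgeR quasi-likelihood test).

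Ckb (ENSMUSG00000001270, chromosome 12), the cytosolic form first described in brain, did not mirror Ckm. Its vehicle libraries were at 50.7, 53.2 and 50.0 CPM at 0 h, at 7.35, 7.27 and 8.0 CPM at 24 h, at 885, 835 and 816 CPM at 48 h, and at 66.8, 45.1 and 21.8 CPM at 120 h. Ckb thus peaked at 48 h with Ckm, and among these 4 time points the groups of 24 and 48 h did not overlap any other. It fell by 2.73 from 0 to 24 h (SE 0.076, adjusted p = 1.64e-12), rose by 6.81 from 24 to 48 h (SE 0.0789, adjusted p = 5.87e-16), and fell by 4.23 from 48 to 120 h (SE 0.34, adjusted p = 7.62e-06). Ckmt2, the sarcomeric mitochondrial creatine kinase, was at 0 in every library of 0 and 24 h and at 0.594, 1.07 and 0.937 CPM in vehicle libraries of 48 h. Against the limit of 3 counts, it was at least 7.12-fold higher at 48 h than at 24 h. Its 120 h levels of 2.36, 2.22 and 0.904 CPM overlapped those of 48 h, and the rise of 1.08 (SE 0.42, adjusted p = 0.0465) was lost when any library but vehicle replicate 3 of 120 h was left out (0.86 to 1.25, adjusted p = 0.0736 to 0.155), and with DESeq2 (adjusted p = 0.0689).

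The enolases and phosphoglycerate mutases had a mixed course. Eno1, the ubiquitous enolase, was at 1900, 1989 and 2013 CPM in vehicle libraries of 0 h, at 1148, 1211 and 1326 CPM at 24 h, at 2311, 2307 and 2406 CPM at 48 h, and at 691, 605 and 449 CPM at 120 h. Eno3, the muscle enolase, was at 494, 493 and 488 CPM at 0 h, at 269, 275 and 284 CPM at 24 h, at 945, 896 and 936 CPM at 48 h, and at 1374, 1141 and 796 CPM at 120 h. Both were therefore high in myoblasts already, and only Eno1 had every 120 h library below all earlier ones. From 48 to 120 h Eno1 fell by 1.99 (SE 0.146, adjusted p = 4.62e-06), whereas the Eno3 difference was 0.27 (SE 0.166, adjusted p = 0.178), and 0.46 (adjusted p = 0.00064) with 120 h replicate 3 left out. Part of the Eno1 signal lies in the near-identical retrocopy Eno1b, which held between 5.82% and 18.3% of the counts of both genes in the 6 whole cultures of 120 h and between 19.3% and 27.3% in the other 41 libraries.

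Pgam1, the ubiquitous phosphoglycerate mutase, was at 929, 978 and 960 CPM in vehicle libraries of 48 h and at 228, 219 and 202 CPM at 120 h. It fell by 2.12 (SE 0.0839, adjusted p = 2.93e-07) with no overlap. Its muscle partner Pgam2 was at most 0.538 CPM in vehicle libraries of 0 and 24 h, at 31.2, 30.5 and 27.8 CPM at 48 h, and at 36.2, 33.7 and 19.6 CPM at 120 h. Pgam2 had thus reached its whole-culture vehicle level by 48 h. It had at most 11 counts in any vehicle library of 24 h. It entered the 24 to 48 h test only through the 48 h group, so its fitted rise of 6.53 gives no precise size. From 48 to 120 h the difference was 0.02 (SE 0.198, adjusted p = 0.94), or 0.25 (adjusted p = 0.029) without 120 h replicate 3.

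Pfkm, the muscle phosphofructokinase, and Pygm, the muscle glycogen phosphorylase, rose at both later steps. The scarce Ckmt2 passed at both too, but its call from 48 to 120 h was lost with any of 5 of the 6 libraries left out. Pfkm was at 93.2, 96.8 and 101 CPM at 0 h, at 42.3, 42.0 and 43.5 CPM at 24 h, at 364, 375 and 365 CPM at 48 h, and at 713, 574 and 419 CPM at 120 h. Pygm was at most 1.18 CPM in vehicle libraries of 0 and 24 h, at 109, 107 and 99.1 CPM at 48 h, and at 222, 172 and 128 CPM at 120 h. The 4 time points of Pfkm did not overlap, nor did 48 and 120 h for Pygm. From 48 to 120 h Pfkm rose by 0.64 (SE 0.16, adjusted p = 0.00597) and Pygm by 0.74 (SE 0.166, adjusted p = 0.00331). Neither passed with all groups in 1 fit (adjusted p = 0.0974 and 0.12). Ampd1, the muscle AMP deaminase of the purine nucleotide cycle, was at 0 in every vehicle library of 0 and 24 h, at 0.891, 1.93 and 2.05 CPM at 48 h and at 0.837, 1.13 and 0.714 CPM at 120 h. It was at least 13.3-fold higher at 48 h than at 24 h.

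Counted over the members, none of 6 tested rose and 5 fell from 0 to 24 h, where 37.3% of all genes tested rose and 37.0% fell. From 24 to 48 h, where 38.4% of genes rose and 38.4% fell, the 5 members with enough counts in both groups (Ckb, Eno1, Eno3, Pgam1 and Pfkm) rose, with a median log2 fold change of 1.75 beside -0.02 for all genes tested. The other 5 also passed the test, but Ckm, Ckmt2, Pgam2, Pygm and Ampd1 entered it only through the 48 h group. From 48 to 120 h 3 rose (Ckmt2, Pfkm and Pygm) and 4 fell (Ckm, Ckb, Eno1 and Pgam1), where 33.0% of genes rose and 34.1% fell. With all groups in 1 fit, Pgam1 did not pass from 0 to 24 h (adjusted p = 0.0548) or from 24 to 48 h (adjusted p = 0.311), and none of the 3 rises from 48 to 120 h passed. The whole cultures of 120 h lay outside both of their filtered fractions for several members. Vehicle means there were 158 CPM for Ckm, 44.6 CPM for Ckb, 582 CPM for Eno1 and 217 CPM for Pgam1, against 263, 195, 2183 and 895 CPM in the myoblast-enriched fraction and 707, 409, 1844 and 644 CPM in the myotube-enriched one. The falls from 48 to 120 h are therefore those of whole cultures, and Ckm in 2 of 3 vehicle myotube-enriched libraries (822 and 848 CPM) was above every 48 h library. In whole vehicle cultures the markers of dividing cells summed to between 599 and 654 CPM at 24 h, between 1074 and 1095 CPM at 48 h and between 216 and 255 CPM at 120 h. Fibroblast markers summed to between 5.85 and 7.17 CPM, between 123 and 136 CPM and between 81.0 and 90.2 CPM at these times. The part of these lists was not tested. In bulk RNA, fewer cells of a type and less RNA per cell cannot be told apart.

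**Figure D1:**
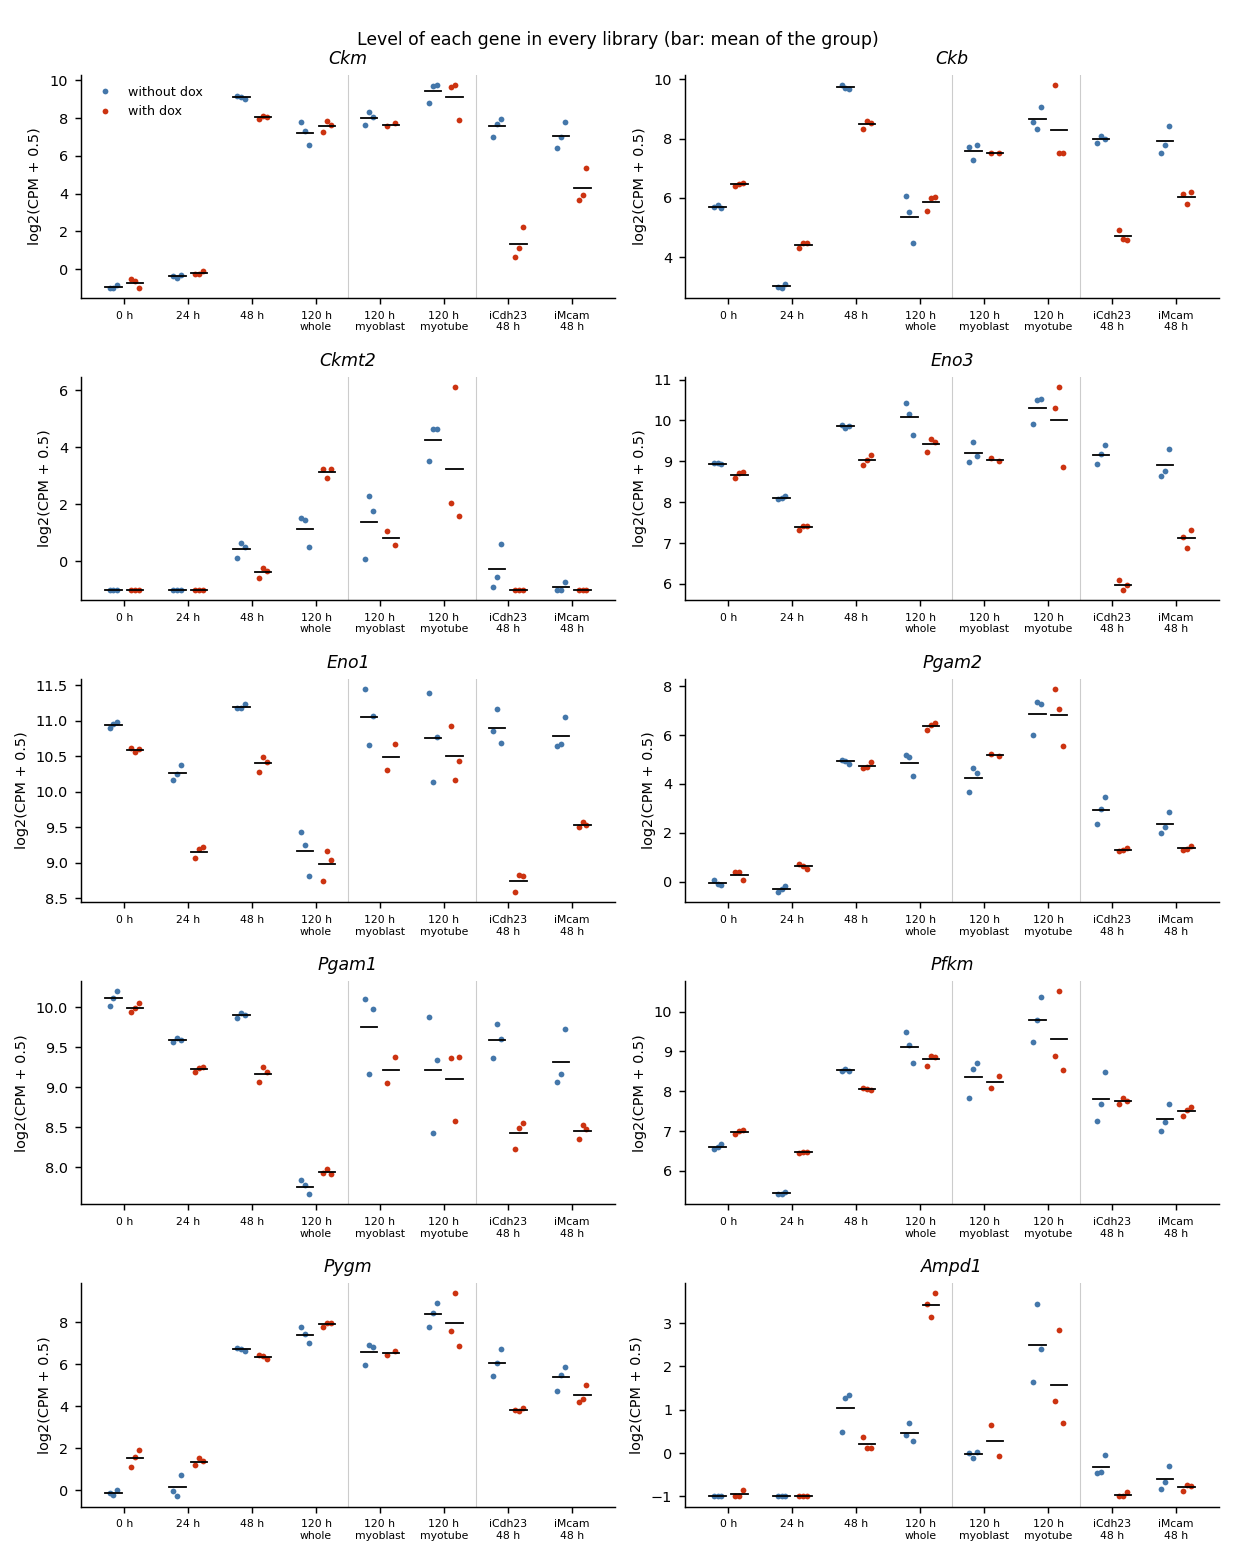
Level of each of the 10 members in every library, in CPM on a log axis, by line, time, fraction and dox. Points are libraries and bars are group means. Ckm, Ckmt2, Pgam2, Pygm and Ampd1 lie at or below 3.34 CPM in every library of 0 and 24 h, while Eno1, Eno3, Pgam1 and Pfkm lie at or above 42.0 CPM in every library.

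The isoform share was computed per transcript length, so that levels of different genes could be compared. Ckm made up 0.0396% ± 0.0685 (SD, n = 3) of Ckm and Ckb in vehicle cells at 0 h, 43.7% ± 0.469 at 48 h and 81.4% ± 2.0 at 120 h. Eno3 made up 23.6% ± 0.45 of the 3 enolases at 0 h, 30.4% ± 0.504 at 48 h and 65.7% ± 0.827 at 120 h. Pgam2 reached 6.19% ± 0.426 of the mutase pair at 48 h and 22.2% ± 4.54 at 120 h. The muscle share was therefore larger in every whole vehicle culture of 120 h than in every one of 48 h in these 3 families. In the vehicle fractions of 120 h it was lower for some, between 17.8% and 32.9% for Eno3 and between 2.26% and 8.36% for Pgam2 in the myoblast-enriched libraries. In the myotube-enriched vehicle libraries it was between 58.8% and 75.5% for Ckm and between 28.0% and 55.8% for Eno3. Both lay below every whole vehicle culture of 120 h, while Pgam2, between 12.6% and 50.2%, overlapped. From 48 to 120 h in whole cultures Ckm fell by 1.78 and Ckb fell by 4.23 on the log2 scale, while Pgam2 differed by 0.02 and Pgam1 fell by 2.12.

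Pfkm made up 26.8% ± 0.721 of Pfkm, Pfkl and Pfkp at 0 h, 56.4% ± 1.41 at 48 h and 84.7% ± 0.553 at 120 h. Pygm made up 0.781% ± 0.402 of the 3 phosphorylases at 0 h, 75.1% ± 1.63 at 48 h and 91.6% ± 1.35 at 120 h. Both shares were higher in each 120 h whole culture than in each 48 h library. In the myotube-enriched vehicle libraries Pfkm was between 61.5% and 82.6%, below every whole vehicle culture of 120 h. Pygm there was between 84.6% and 94.4%, which overlapped. Ampd1 was the exception, with 3.83% ± 1.59 of the 3 deaminases at 48 h and 2.08% ± 0.756 at 120 h. The mitochondrial pair was scarce. Ckmt1, the ubiquitous mitochondrial creatine kinase, had all of the 3 to 14 counts of the pair in vehicle libraries of 0 and 24 h, and Ckmt2 had all of them in vehicle iMyoD1 libraries from 48 h on.

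**Figure D2:**
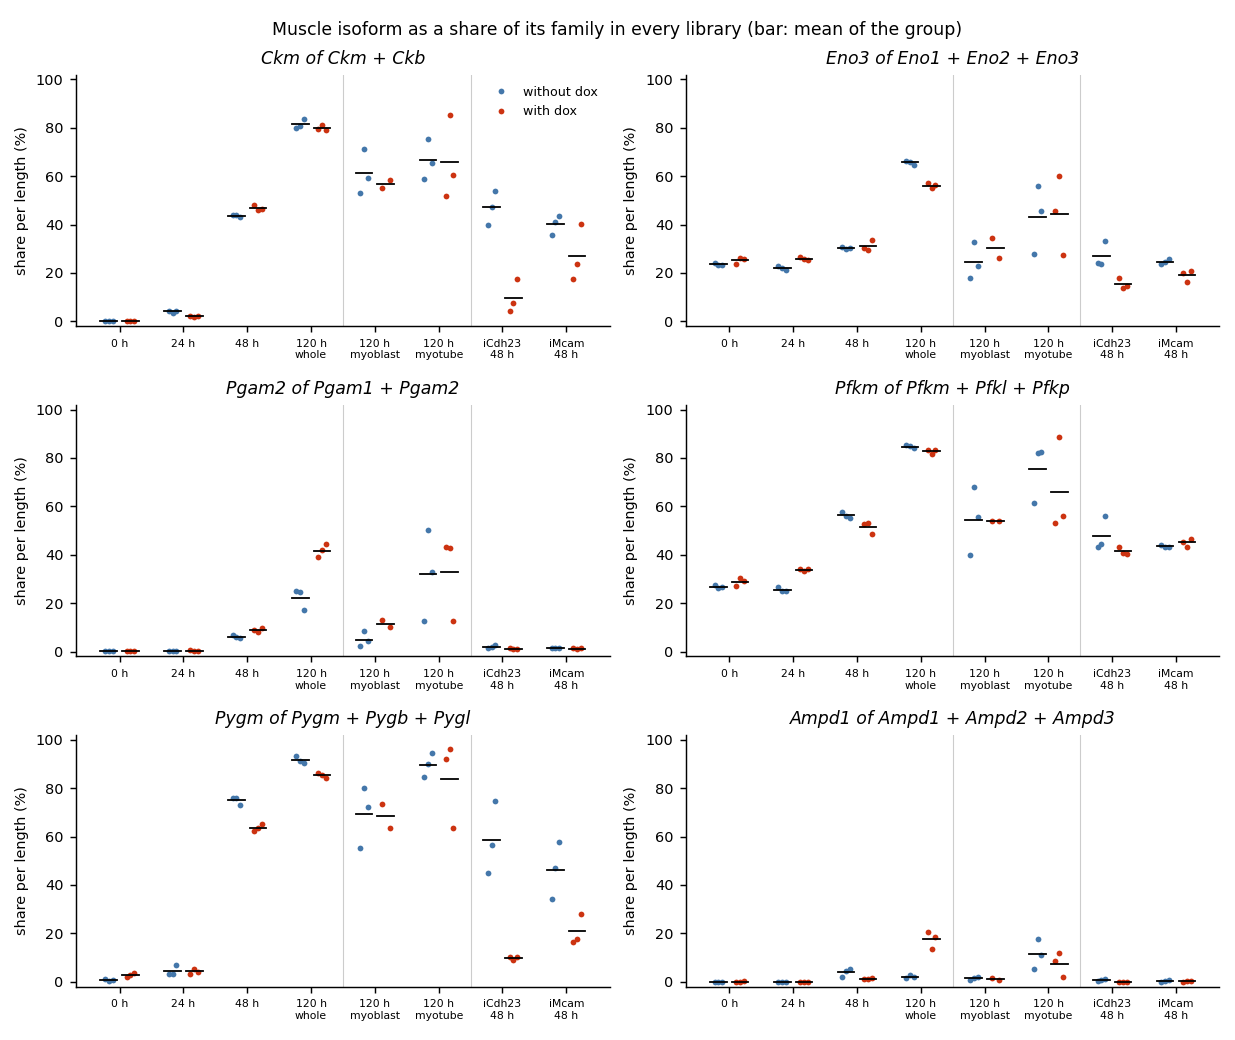
Share of the muscle isoform in its family, per transcript length and in percent, in every library, with bars for group means, for Ckm, Eno3, Pgam2, Pfkm, Pygm and Ampd1. In whole iMyoD1 cultures the share without dox is higher at 120 h than at 48 h in every family but Ampd1, and with dox at 120 h Pgam2 and Ampd1 lie above vehicle.

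Dox given to iMyoD1 myoblasts moved members in both directions before differentiation was under way. At 0 h Ckb was at 83.3, 88.6 and 89.1 CPM with dox and at 50.7, 53.2 and 50.0 CPM without, a rise of 0.77 (SE 0.0595, adjusted p = 4.07e-07). Pygm was at 1.68, 2.47 and 3.34 CPM with dox and at 0.418, 0.35 and 0.499 CPM without, a rise of 2.55 (SE 0.363, adjusted p = 9.95e-05). Neither pair of groups overlapped, and Pfkm rose by 0.39 (adjusted p = 0.000104). Eno1 fell by 0.34 (adjusted p = 0.000126) and Eno3 fell by 0.26 (adjusted p = 0.00156), while Ckm, Ckmt2 and Ampd1 were too low to be tested. In all, 3 of 7 members tested rose and 2 fell, beside 19.1% and 18.7% of all genes tested. Pygm and Pgam2 entered that test only through the dox group. Leaving these aside, 2 of 5 members rose and 2 fell, with a median log2 fold change of -0.11, against 0.39 over all 7. With all groups in 1 fit, which shares 1 estimate of the spread, Ckb, Pfkm, Eno1 and Eno3 did not pass (adjusted p = 0.246 to 0.652). The 10 muscle markers summed to between 4.55 and 5.54 CPM with dox and between 1.43 and 2.45 CPM without, and the markers of dividing cells to between 2092 and 2175 CPM with dox and between 2385 and 2403 CPM without. Myoblast markers summed to between 426 and 437 CPM with dox and between 550 and 583 CPM without. The part of these lists was not tested.

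At 24 h the same directions were seen with larger sizes for most. Ckb was at 19.3, 21.5 and 21.9 CPM with dox and at 7.35, 7.27 and 8.0 CPM without, and rose by 1.44 (SE 0.0918, adjusted p = 6.95e-08). Pgam2 was at 1.15, 1.07 and 0.933 CPM with dox and at 0.244, 0.319 and 0.381 CPM without, and rose by 1.69 (adjusted p = 0.000731). Dox libraries were above vehicle libraries without overlap for both genes. Pfkm rose by 1.02 and Pygm by 1.61 (adjusted p = 0.00234, or 2.35 without vehicle replicate 3), and Eno1 fell by 1.13 (adjusted p = 7.39e-08) from a vehicle mean of 1228 CPM. Eno3 fell by 0.75 and Pgam1 fell by 0.39 (adjusted p = 6.79e-05), and the Pgam1 call was lost with library totals in place of TMM (-0.12, adjusted p = 0.0557) and with all groups in 1 fit (adjusted p = 0.159). Ckm was at 0.337, 0.333 and 0.424 CPM with dox and at 0.284, 0.213 and 0.312 CPM without, a difference of 0.42 that did not pass (adjusted p = 0.404). In all, 4 of 8 members rose and 3 fell, beside 31.1% and 31.7% of genes, with Ckm, Pgam2 and Pygm tested only through the dox group. Leaving these aside, 2 of 5 rose and 3 fell, with a median log2 fold change of -0.39, against 0.72 over all 8. The myoblast markers summed to between 166 and 190 CPM with dox and between 389 and 394 CPM without, while the ranges of the muscle markers overlapped (12.5 to 13.2 CPM with dox and 12.6 to 13.6 CPM without). Their part was not tested.

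The dox effects at 24 h and 0 h were compared as an interaction. That of Ckb was higher at 24 h by 0.63 (SE 0.0967, adjusted p = 8.1e-05) and that of Pfkm by 0.58 (adjusted p = 9.52e-06). That of Eno1 was lower by 0.84 (adjusted p = 1.63e-06), that of Eno3 by 0.53 (adjusted p = 3.42e-05) and that of Pgam1 by 0.32 (adjusted p = 0.00464), a difference of -0.12 (adjusted p = 0.263) with library totals. In all, 2 of 7 members tested had a higher effect and 3 a lower one, beside 13.3% and 20.7% of genes.

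At 48 h dox was followed by lower levels of nearly all members in iMyoD1. Ckm was at 246, 277 and 263 CPM with dox and at 578, 553 and 520 CPM without, and fell by 1.09 (SE 0.0689, adjusted p = 4.15e-07). Ckb was at 317, 387 and 364 CPM with dox and at 885, 835 and 816 CPM without, and fell by 1.26 (SE 0.0804, adjusted p = 4.25e-07). Every dox library was below every vehicle library for both kinases. Eno1 fell by 0.81, Eno3 fell by 0.84 and Pgam1 fell by 0.75. Pfkm fell by 0.48 and Pygm by 0.37, and the scarce Ckmt2 and Ampd1 fell by 1.67 and 1.33. Pgam2 was at 24.4, 25.5 and 29.1 CPM with dox and at 31.2, 30.5 and 27.8 CPM without, with a difference of -0.20 that did not pass (SE 0.0909, adjusted p = 0.0846), although it did with dox replicate 3 left out (-0.27, adjusted p = 0.0123). With all groups in 1 fit, Pfkm, Pygm, Ckmt2 and Ampd1 did not pass (adjusted p = 0.0677 to 0.52). None of 10 members rose and 9 fell, beside 27.9% and 28.7% of genes. Leaving aside Ckmt2, which entered only through the vehicle group, 8 of 9 fell, with a median of -0.81 beside 0.01 over all genes tested.

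Beside these values, the 10 differentiated muscle markers summed to between 5027 and 5238 CPM with dox at 48 h and between 12670 and 14019 CPM without. The 6 markers of dividing cells summed to between 315 and 329 CPM with dox and between 1074 and 1095 CPM without. Fibroblast markers summed to between 53.0 and 53.3 CPM with dox and between 123 and 136 CPM without. Myoblast markers were higher with dox, between 446 and 458 CPM against between 383 and 404 CPM. The part of these lists in the member differences was not tested.

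At 120 h in whole cultures, dox was followed by higher levels of 3 muscle isoforms and a lower level of Eno3. Ampd1 was at 10.4, 8.36 and 12.4 CPM with dox and at 0.837, 1.13 and 0.714 CPM without, and rose by 3.52 (SE 0.273, adjusted p = 1.3e-05). Ckmt2 was at 8.97, 7.04 and 8.88 CPM with dox and at 2.36, 2.22 and 0.904 CPM without, and rose by 2.17 (SE 0.333, adjusted p = 0.00076, or 0.0539 with all groups in 1 fit). Pgam2 was at 74.2, 85.4 and 90.8 CPM with dox and at 36.2, 33.7 and 19.6 CPM without, and rose by 1.47 (SE 0.205, adjusted p = 0.000421). The dox libraries of all 3 genes were above the vehicle libraries without overlap. In the fractions of 120 h cultures neither Ampd1 nor Ckmt2 passed with dox, and their means went both ways. With the replicate number as a block, Ckmt2 was lower with dox in the myoblast-enriched fraction (-1.50, edgeR, adjusted p = 0.00622). The mean of Ampd1 was 3.17 CPM with dox and 5.94 CPM without in the myotube-enriched fraction, and 0.758 and 0.483 CPM in the myoblast-enriched one. The mean of Ckmt2 was 24.9 CPM with dox and 19.8 CPM without in the myotube-enriched fraction, and 1.28 and 2.61 CPM in the myoblast-enriched one. The 24.9 CPM rests on dox replicate 2 (68.7 CPM, against 3.58 and 2.48 CPM in the others). Without that library the myotube-enriched difference of Ckmt2 was -2.68. Eno3 was at 597, 745 and 715 CPM with dox and at 1374, 1141 and 796 CPM without, and fell by 0.70 (SE 0.179, adjusted p = 0.011).

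The remaining 6 members did not pass at 120 h. Ckm was at 152, 230 and 201 CPM with dox and at 223, 158 and 93.8 CPM without, with a difference of 0.28 (SE 0.269, adjusted p = 0.419), and Ckb differed by 0.37 (SE 0.324, adjusted p = 0.388). Both pairs of groups overlapped, and the vehicle replicates were spread widely. Pygm differed by 0.44 (SE 0.169, adjusted p = 0.0577, or 0.021 with DESeq2). With library totals Pygm differed by 0.65 (adjusted p = 0.0096) and Pgam1 by 0.37 (adjusted p = 0.00405). With vehicle replicate 1 left out, Ckm differed by 0.61 (adjusted p = 0.0443), Ckb by 0.77 (adjusted p = 0.0361) and Pygm by 0.65 (adjusted p = 0.00214). With vehicle replicate 3 left out, Eno1 differed by -0.37 (adjusted p = 0.0235) and Pfkm by -0.55 (adjusted p = 0.00174). In all, 3 of 10 members rose and 1 fell, beside 21.4% and 23.7% of genes. The 10 differentiated muscle markers summed to between 12600 and 14395 CPM with dox and between 17330 and 20864 CPM without. This sum was lower with dox while the 3 muscle isoforms above were higher, but of the 10 markers 2 rose and 6 fell. The markers of dividing cells summed to between 423 and 492 CPM with dox and between 216 and 255 CPM without. Fibroblast markers summed to between 44.9 and 48.3 CPM with dox and between 81.0 and 90.2 CPM without, and myoblast markers to between 262 and 273 CPM with dox and between 226 and 245 CPM without. The part of these lists was not tested.

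The isoform shares at 120 h moved in both directions. Pgam2 made up 39.1%, 41.8% and 44.3% of the mutase pair with dox and 25.1%, 24.6% and 17.0% without. Ampd1 made up 20.7%, 13.7% and 18.5% of the deaminases with dox and 1.42%, 2.9% and 1.91% without. Both muscle shares were higher with dox without overlap. Eno3 was lower, with 57.1%, 55.0% and 56.2% of the enolases with dox and 66.4%, 65.9% and 64.8% without. Pygm was lower too, with 86.4%, 85.4% and 84.2% of the phosphorylases with dox and 93.1%, 91.1% and 90.5% without, although its level differed by 0.44. Pfkm made up between 81.6% and 83.4% of the phosphofructokinases with dox and between 84.1% and 85.2% without. The share of Ckm, with 79.6%, 81.2% and 78.9% with dox and 79.9%, 80.7% and 83.7% without, overlapped. These shares are descriptions, since 3 libraries against 3 cannot go below p = 0.1 in an exact permutation test.

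Tested as an interaction, the dox effect was higher at 120 h than at 48 h for 8 of 10 members and lower for none, beside 16.8% and 17.2% of genes. The difference was 4.84 for Ampd1 (SE 0.448, adjusted p = 2.31e-06), 3.84 for Ckmt2 (SE 0.542, adjusted p = 0.000113) and 1.67 for Pgam2 (SE 0.244, adjusted p = 0.000147). It was 1.63 for Ckb (SE 0.367, adjusted p = 0.00379) and 1.37 for Ckm (SE 0.312, adjusted p = 0.00401). Pgam1, Pygm and Eno1 had higher effects by 0.92, 0.81 and 0.61. Eno3 and Pfkm did not pass, with 0.14 (adjusted p = 0.662) and 0.12 (adjusted p = 0.679). The Eno1 call was lost when Eno1b was added to it (0.51, adjusted p = 0.099), with the replicate block (0.62, adjusted p = 0.0661) and when any of 6 of the 12 libraries was left out (0.49 to 0.61).

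In the iCdh23 line, dox was followed by lower levels of 7 members. Ckm was at 1.04, 1.69 and 4.14 CPM with dox and at 129, 205 and 249 CPM without, and fell by 6.39 (SE 0.504, adjusted p = 3.63e-05), a difference of -7.13 without dox replicate 3. Eno3 was at 68.3, 57.2 and 62.5 CPM with dox and at 486, 577 and 675 CPM without, and fell by 3.21 (SE 0.154, adjusted p = 6.45e-06). Ckb was at 29.4, 24.0 and 23.4 CPM with dox and at 230, 272 and 253 CPM without, and fell by 3.30 (SE 0.13, adjusted p = 5.23e-06). No dox library reached a vehicle library for any of the 3 genes. Pygm fell by 2.38, Eno1 by 2.17, Pgam2 by 1.92 and Pgam1 by 1.17. Pfkm was at 204, 227 and 214 CPM with dox and at 151, 203 and 360 CPM without, groups that overlapped with a difference of -0.15 (SE 0.286, adjusted p = 0.664), or 0.19 (adjusted p = 0.554) with library totals. None of 8 members tested rose and 7 fell, beside 31.3% and 32.4% of genes. All 7 fell over 2-fold, beside 17.0% of genes.

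In the iMcam line the creatine kinases and Eno3 again led the falls. Ckm was at 12.3, 14.4 and 40.6 CPM with dox and at 84.4, 129 and 222 CPM without, and fell by 2.65 (SE 0.521, adjusted p = 0.00488), a difference of -3.39 without dox replicate 3. Ckb was at 68.7, 55.4 and 72.2 CPM with dox and at 183, 219 and 344 CPM without, and fell by 1.89 (SE 0.232, adjusted p = 0.00077). Neither gene's groups overlapped. Eno3 fell by 1.77, Eno1 by 1.23, Pgam2 by 1.17 and Pgam1 by 0.86. Pygm was at 17.9, 19.7 and 32.1 CPM with dox and at 26.1, 44.7 and 58.8 CPM without, which overlapped, and its difference of -0.86 did not pass (SE 0.318, adjusted p = 0.0564). It did with the replicate number as a block (-0.83, adjusted p = 0.00278), with DESeq2 (-0.88, adjusted p = 0.0132), and without vehicle replicate 1 or dox replicate 3 (-1.14 and -1.16). Pfkm differed by 0.21 (SE 0.167, adjusted p = 0.319), by 0.42 (adjusted p = 0.0173) without vehicle replicate 3 and by 0.41 (adjusted p = 0.0464) with library totals. None of 8 rose and 6 fell, beside 24.2% and 24.8% of genes.

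The lines were compared as interactions at 48 h. The dox effect was lower in iCdh23 than in iMyoD1 for 6 of the 8 members tested in both lines and higher for none, beside 21.6% and 14.2% of genes. Ampd1 (-2.91, adjusted p = 0.0383) and Ckmt2 (-4.86, adjusted p = 0.0896) were also fitted, 7 of 10 members lower in all, but had at most 1 count in any dox library of iCdh23, so these fitted values give no size. The Ampd1 call was lost with DESeq2 (adjusted p = 0.0589), with the replicate block (adjusted p = 0.0564) and when any of 6 libraries was left out (adjusted p up to 0.113), and Ckmt2 passed with DESeq2 (adjusted p = 0.0402), with the block (adjusted p = 0.0184) and with no low-count filter (adjusted p = 0.0451). The difference was -5.28 for Ckm (SE 0.452, adjusted p = 2.47e-06, or -6.05 without iCdh23 dox replicate 3), -2.36 for Eno3 (SE 0.167, adjusted p = 6.15e-07) and -2.02 for Ckb (SE 0.152, adjusted p = 9.06e-07). It was 0.35 for Pfkm (SE 0.309, adjusted p = 0.409), or 0.77 (adjusted p = 0.000573) without iCdh23 vehicle replicate 3, and -0.40 for Pgam1 (SE 0.161, adjusted p = 0.0683). Pgam1 passed with the replicate block (-0.40, adjusted p = 0.0261) and when any of 3 libraries was left out. Between iMcam and iMyoD1 the effect was lower for Eno3 and Pgam2 and higher for Pfkm, 1 of 8 tested in both lines higher and 2 lower, beside 2.35% and 4.06% of genes, and each of these 3 calls was lost when any of 6 to 11 of the 12 libraries was left out (adjusted p up to 0.124), that of Pgam2 also with RLE scaling (adjusted p = 0.0522). The Ckm difference of -1.57 between these lines did not pass (SE 0.537, adjusted p = 0.102). It passed with the replicate block (-1.66, adjusted p = 0.000693), with no low-count filter (-1.61, adjusted p = 0.00755) and without iMcam dox replicate 3 (-2.33, adjusted p = 0.00456). Between iMcam and iCdh23 it was higher in iMcam for 4 of 8 (Ckm, Eno3, Ckb and Eno1) and lower for none, beside 7.61% and 3.03% of genes, with 3.71 for Ckm (SE 0.776, adjusted p = 0.0115), 4.45 without iCdh23 dox replicate 3 and 2.98 without iMcam dox replicate 3. Pygm did not pass, but did with the replicate block (1.44, adjusted p = 0.0159), with DESeq2 (adjusted p = 0.0182) and with no low-count filter (adjusted p = 0.0268).

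**Figure D3:**
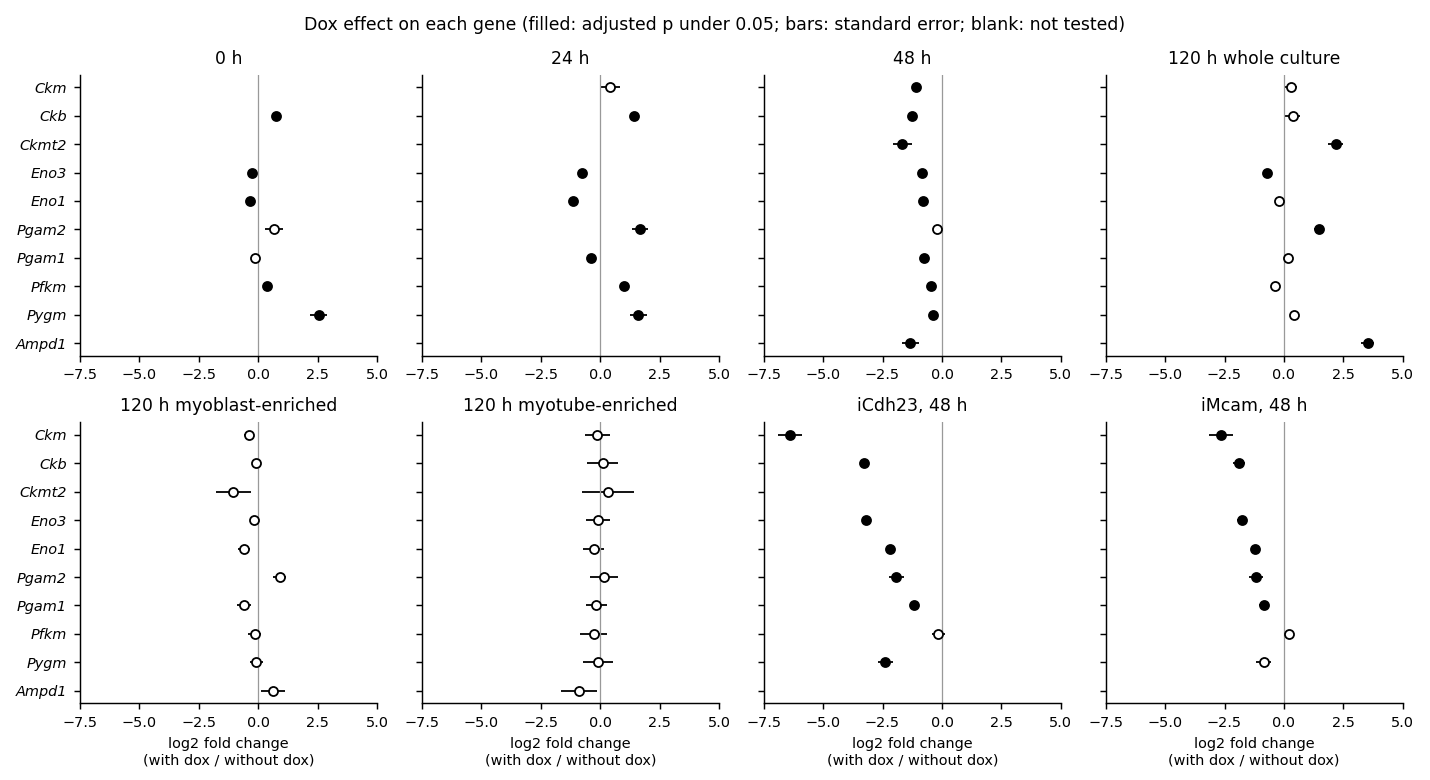
Log2 fold change of dox over vehicle with its standard error for each member, by time, fraction and line, from edgeR. At 48 h in iMyoD1 all 10 values lie below zero, at 120 h Ampd1, Ckmt2 and Pgam2 lie above it, and in iCdh23 Ckm fell by 6.39.

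The summed muscle markers moved with these members. They were between 39.2 and 134 CPM with dox in iCdh23 and between 5355 and 9938 CPM without, and between 535 and 1723 CPM with dox in iMcam and between 4011 and 9958 CPM without. The markers of dividing cells were lower with dox too, between 18.3 and 34.2 CPM against between 671 and 1018 CPM in iCdh23, and between 58.9 and 117 CPM against between 641 and 812 CPM in iMcam. The fibroblast markers were lower as well, between 9.93 and 11.1 CPM against between 65.9 and 166 CPM in iCdh23, and between 31.2 and 41.0 CPM against between 86.3 and 124 CPM in iMcam. The myoblast markers were lower in iCdh23, between 289 and 313 CPM against between 516 and 547 CPM, and overlapped in iMcam, between 386 and 429 CPM against between 334 and 455 CPM. Their part was not tested. Pfkm was the member tested in both lines that passed in neither.

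The log2 ratio of muscle to ubiquitous isoform within a library does not depend on scaling to depth. Over the 3 lines at 48 h, the Ckm to Ckb ratio was lower with dox by 1.34 in the mean (difference -1.34, p = 0.018, adjusted p = 0.027 over 3 pairs, two-sided exact permutation test within line). With the replicate number as a block this ratio did not pass (adjusted p = 0.0762, exact permutation). The Eno3 to Eno1 ratio differed by -0.53 (exact permutation p = 0.00175, adjusted p = 0.00525) and the Pgam2 to Pgam1 ratio by -0.13 (exact permutation p = 0.471, adjusted p = 0.471). The lines did not share a size. The Ckm to Ckb difference was 0.18 in iMyoD1, -3.28 in iCdh23 and -0.91 in iMcam, that of Eno3 to Eno1 was -0.03, -1.04 and -0.53, and that of Pgam2 to Pgam1 was 0.55, -0.67 and -0.27. With iCdh23 left out, Ckm to Ckb was -0.37 (exact permutation, adjusted p = 0.365), and with iMcam left out it was -1.55 (exact permutation, adjusted p = 0.15). In iMyoD1 both creatine kinases fell at 48 h with a ratio that moved the other way.

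The 120 h fractions differed in the muscle isoforms. Without dox, Ampd1 was at 2.63, 10.4 and 4.78 CPM in the myotube-enriched fraction and at 0.504, 0.423 and 0.522 CPM in the myoblast-enriched one, a rise of 3.65 (SE 0.554, adjusted p = 0.0403), or 2.95 without myotube-enriched replicate 2. Pgam2 was at 64.2, 164 and 152 CPM in the former and at 12.1, 24.7 and 21.1 CPM in the latter, a rise of 2.74 (SE 0.403, adjusted p = 0.0401). The fractions did not overlap for either gene, but the Ampd1 call was lost when any of 4 of the 6 libraries was left out (adjusted p up to 0.197) and the Pgam2 call with any of 5 (adjusted p up to 0.19). Of 10 members 2 rose and none fell (1 of 9 without Ampd1, which entered only through the myotube-enriched group), beside 0.578% and 0.0143% of genes.

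After group means were removed, same-numbered libraries of these fractions correlated by 0.41, 0.12 and 0.19. Myotube-enriched replicate 3 correlated more with a library of another number (0.29), so pairing by number held for replicates 1 and 2 only. With the replicate block 8 of 10 members were over 2-fold higher in the myotube-enriched fraction, against 2 without it. Over all genes, 2.3% rose over 2-fold with the block and 0.57% without it. Ckm was at 451, 822 and 848 CPM against 199, 320 and 270 CPM (blocked 1.42, adjusted p = 0.00988, against 0.0778 without the block). Ckb was at 376, 319 and 531 CPM against 209, 154 and 222 CPM (blocked 1.07, adjusted p = 0.0171). Ckmt2, Eno3, Pfkm and Pygm were higher by 3.15, 1.14, 1.47 and 1.85 under the block, with adjusted p of 0.00766, 0.019, 0.00922 and 0.00502. Eno1, at 2673, 1122 and 1737 CPM against 2789, 1614 and 2144 CPM, and Pgam1, at 939, 344 and 650 CPM against 1100, 573 and 1012 CPM, overlapped between the fractions, although within each of the 3 pairs both were lower in the myotube-enriched library (blocked -0.27, adjusted p = 0.399, and -0.51, adjusted p = 0.147). The muscle markers summed to between 14488 and 22432 CPM in the myotube-enriched fraction and between 6199 and 9489 CPM in the myoblast-enriched one, so both fractions carried them. Markers of dividing cells summed to between 126 and 585 CPM in the former and between 390 and 1071 CPM in the latter. These ranges overlapped, but the sum was lower in the myotube-enriched library of each same-numbered pair. The part of these lists was not tested.

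With dox the fractions were more uneven. Ckb was at 901, 183 and 184 CPM and Ckmt2 at 3.58, 68.7 and 2.48 CPM in the 3 myotube-enriched libraries, a spread larger than the difference from the myoblast-enriched fraction. No member passed between the fractions with dox, although 4 of 10 had an unadjusted p under 0.05, and no gene of those tested passed (0.0% rose and 0.0% fell). For dox against vehicle in the myotube-enriched fraction no member passed and none had an unadjusted p under 0.05, where 0.0% of genes rose and 0.0% fell. The standard errors there were between 0.435 and 1.08 on the log2 scale, and differences of that size could not be detected with these libraries. In the myoblast-enriched fraction no member passed either, beside 1.82% of genes that rose and 2.52% that fell, with Pgam2 alone at an unadjusted p under 0.05 (37.0 and 34.7 CPM with dox against 12.1, 24.7 and 21.1 CPM, a difference of 0.90, adjusted p = 0.112, or 0.0299 with DESeq2). With the replicate number as a block, Pgam2 (0.66, adjusted p = 0.00442) was higher with dox, and Ckm (-0.54, adjusted p = 0.0148), Ckmt2 (-1.50, adjusted p = 0.00622) and Pfkm (-0.38, adjusted p = 0.0397) were lower. The muscle markers summed to between 4879 and 5271 CPM with dox and between 6199 and 9489 CPM without, and the fibroblast markers to between 86.3 and 107 CPM with dox and between 285 and 363 CPM without. The part of either list was not tested. These counts are from edgeR's fit without the block, and the interaction of dox and fraction passed for no member and for 0.0% of genes.

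Transcript-level estimates added a feature that gene sums do not show. Pfkm-202, the transcript that starts at chr15:98092589 upstream of the others, held 0% of Pfkm counts in every library of 0 and 24 h, between 0% and 11.6% at 48 h in iMyoD1, and between 50.5% and 73.0% in all 6 whole cultures of 120 h. Its share in the fractions ranged from 0% to 91.6%. Eno1-205 held between 4.62% and 7.78% of Eno1 counts at 0 and 24 h, between 7.11% and 16.3% at 48 h in iMyoD1 and between 17.7% and 24.7% in whole cultures of 120 h. These are estimates by salmon of how reads divide among overlapping transcripts, and no test was run on them.

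**Figure D4:**
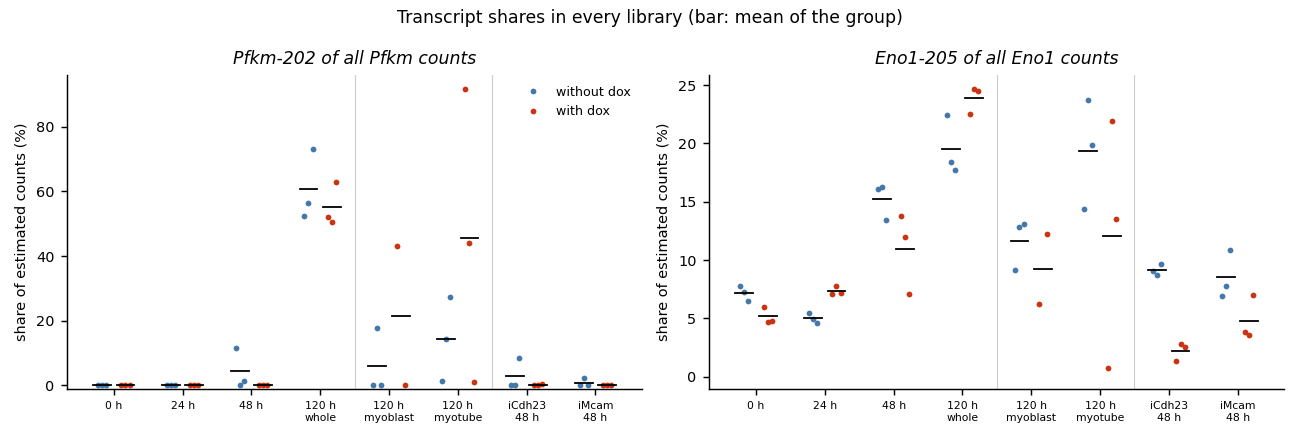
Share of estimated counts, in percent, held by Pfkm-202 among Pfkm transcripts and by Eno1-205 among Eno1 transcripts in every library, with bars for group means. The 6 whole cultures of 120 h lie between 50.5% and 73.0% for Pfkm-202, and every library of 0 and 24 h lies at 0%.

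Across the 16 group means, Ckm was most like genes of the sarcomere. By Pearson's r of log2 CPM over the 16 groups, which share libraries and depth, the nearest genes were Tnni1 (0.993), Tnnc2 (0.992), Acta1 (0.991), Klhl40 (0.99) and Tnnt3 (0.99). Ckb was nearest to Obsl1 (0.95), Pdgfb (0.942) and Pdlim4 (0.935), followed by Gamt (0.932), which makes creatine. Eno1 was nearest to Pkm (0.975), the pyruvate kinase that takes up the product of enolase.

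Among the members, r was 0.958 for Ckm and Pygm, 0.942 for Pgam2 and Pygm, 0.916 for Ckmt2 and Ampd1 and 0.829 for Eno1 and Pgam1. For the pair Ckm and Ckb it was 0.781, and for Ckm and Pgam1 it was -0.234. Some muscle pairs were lower than Ckm and Ckb, with 0.684 for Ckm and Ckmt2, 0.698 for Ckm and Ampd1, and 0.663, 0.609 and 0.586 for Eno3 with Ckm, Pfkm and Pygm. Others were higher, among them Ckm with Pgam2 (0.908) and with Pfkm (0.839). Ckb had 0.673 with Pygm and 0.654 with Eno1. These values are a description over 16 groups of these libraries.

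The other genes of the same pathways moved in both directions with dox. Of all genes tested, 27.9% rose and 28.7% fell at 48 h in iMyoD1, 31.3% and 32.4% in iCdh23, and 24.2% and 24.8% in iMcam. Of 19 further glycolysis genes, all tested, 4 rose and 11 fell at 48 h in iMyoD1, 5 rose and 12 fell in iCdh23, and 5 rose and 9 fell in iMcam. Aldoc, an aldolase that is abundant in brain, rose by 1.80, 2.09 and 2.40 in the 3 lines, and Hk2, the muscle hexokinase, fell by 1.67, 2.92 and 1.60. Pfkfb4 rose by 0.92, 1.72 and 1.13. At 120 h 11 rose and 2 fell, beside 21.4% and 23.7% of all genes tested, with Hk2 lower by 2.57 on the log2 scale (log2 fold change -2.57, adjusted p = 4.75e-07).

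Of 16 glycogen genes, 14 were tested at 48 h, of which 6 rose and 7 fell at 48 h in iMyoD1, 5 rose and 4 fell in iCdh23, and 3 rose and 1 fell in iMcam. Pygb, the phosphorylase first described in brain and a partner of Pygm, rose by 0.54, 1.41 and 0.92, while Gys1, the muscle glycogen synthase, fell by 0.92, 1.14 and 0.65. Of 13 creatine and adenine nucleotide genes, 12 were tested, of which 2 rose and 4 fell in iMyoD1, none rose and 7 fell in iCdh23, and none rose and 4 fell in iMcam. Gatm, which begins the synthesis of creatine, fell by 0.99, 3.31 and 2.00. Gamt, which completes it, had risen by 4.08 from 24 to 48 h without dox, beside the rise of Ckm and Ckb.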

How the data were processed

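C2C12 RNA-seq libraries were grouped by line, time, fraction and dox as GEO's labels give them. The authors processed reads with Salmon within nf-core/rnaseq and deposited estimated counts per transcript, not scaled to depth or length; the RNA-seq annotation and the strand setting are not given in the sources used here. GENCODE vM21 (GRCm38) gave positions, symbols and lengths, matching 98.72% of transcripts.

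Estimated counts were summed per gene and rounded. Total counts per library were 15066338 to 50950674, which sets the precision of scarce genes such as Ampd1. For each comparison, both groups were fitted by edgeR 4.0.16 in R 4.3.3 (filterByExpr, TMM, quasi-likelihood test, Benjamini-Hochberg over all genes tested), and differences between dox effects as interactions. A gene rose or fell at an adjusted p under 0.05. A member entered a test only through 1 group where the other failed the filter's minimum of 10 counts at the median library size. Standard errors came from the F statistic. Folds against groups with at most 3 counts per library are lower bounds against that floor, which covers counting error only. Isoform ratios used counts plus 0.5 and exact permutation within line.

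The 10 members are all named. Of the pathway lists, at most the 2 largest rises and 2 largest falls with a mean of at least 5 CPM are named per comparison. Members and lists were chosen with earlier results of these data known. Replicates are labelled biological, and their p-values measure only the spread between these libraries. Same-numbered libraries had a residual correlation over 0.1 in each of 3 pairs for the fractions without dox (0.41, 0.12 and 0.19) and for iMcam (0.36, 0.23 and 0.42). In those fractions, myotube-enriched replicate 3 correlated more with a library of another number (0.29). Alternatives were RLE, library totals, no filter, DESeq2 1.42.0, all groups in 1 fit, a replicate block, each library left out, and Eno1b added to Eno1. The tests were checked on simulated data, in which genes with few counts were not among those changed. Of 200 genes changed 2-fold, 191 were recovered for dox at 48 h and 130 for the interaction of 120 against 48 h. For dox in the myoblast-enriched fraction 98 were recovered, and in the myotube-enriched one 0, or 117 of 200 at 4-fold. Library totals and Eno1b were chosen after seeing the data. Permutation tests used scipy 1.17.1 under Python 3.11.15.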

Additional observations from a re-analysis of the deposited data

Results flagged for a closer look

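Differences between dox effects of more than 2-fold, each past an adjusted p of 0.05 in edgeR's test of the interaction, were found in 3 contrasts. No cause was tested for any of them.

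Between 120 and 48 h in whole iMyoD1 cultures, the dox effect was higher at 120 h by 1.37 for Ckm, 1.63 for Ckb, 3.84 for Ckmt2, 1.67 for Pgam2 and 4.84 for Ampd1 on the log2 scale. The 5 genes had values of -1.09, -1.26, -1.67, -0.20 and -1.33 at 48 h and of 0.28, 0.37, 2.17, 1.47 and 3.52 at 120 h.

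Between the iCdh23 and iMyoD1 lines at 48 h, the dox effect was lower in iCdh23, with differences of -5.28 for Ckm, -2.02 for Ckb, -1.34 for Eno1, -2.36 for Eno3, -1.70 for Pgam2 and -1.99 for Pygm. Ampd1 passed in that fit too (-2.91) but is not counted here, since it had at most 1 count in any dox library of iCdh23 and was not tested within that line.

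Between the iMcam and iCdh23 lines at 48 h, the dox effect was higher in iMcam by 3.71 for Ckm, 1.39 for Ckb and 1.42 for Eno3. Cdh23 and Mcam are both present in iCdh23 cells with dox, Mcam at between 45.7 and 54.6 CPM, and in iMcam cells with dox, Cdh23 at between 44.0 and 57.2 CPM.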

How the results depend on the processing

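No single-gene value past the threshold changed sign under any alternative. Of 172 single-gene values, 171 kept their side of the threshold with RLE, 159 with no low-count filter, 166 with library totals, 159 with DESeq2 and 154 with the replicate block, as did 92 of 117 with all groups in 1 fit (15 calls lost and 10 gained) and 1251 of 1331 with a library left out (52 lost and 28 gained). Values past the threshold in neither fit changed sign in 6 cases with library totals, 1 with all groups in 1 fit, 7 with the replicate block and 55 with a library left out, mostly in the fractions. Among them, Pfkm for dox in iCdh23 went from -0.15 to 0.27 (adjusted p = 0.0953) without iCdh23 vehicle replicate 3, and Ckmt2 for dox in the myotube-enriched fraction from 0.34 to -2.68 without dox replicate 2. Library totals shifted the median of all genes by 0.11, 0.26, 0.15 and 0.20 for dox at 0, 24, 48 and 120 h and by 0.33 and 0.21 in iCdh23 and iMcam, so members moved relative to that.

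Counts of members changed over 2-fold varied most in the fractions without dox, where 2 became 8 with no filter, with DESeq2, with all groups in 1 fit and with the replicate block, and 0 to 6 with a library left out. With dox they went from 0 to 4 with all groups in 1 fit. For dox in the myoblast-enriched fraction 0 became 1 with the replicate block, whose 2 pairs correlated at 0.43 and 0.30, and 0 to 1 with a library left out. Under that block 4 members passed at any size. For dox at 48 h 4 became 2 with all groups in 1 fit. For iMcam against iMyoD1, 0 became 2 with no filter, 1 with the replicate block and 0 to 3 with a library left out. With a library left out, counts were 4 to 7 for iMcam, 4 to 5 from 48 to 120 h, 5 to 6 for 120 against 48 h, 6 to 8 for iCdh23 against iMyoD1 and 3 to 5 for iMcam against iCdh23. The cause was not tested.

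The isoform ratios depended on the lines. The Pgam2 to Pgam1 ratio was -0.47 (exact permutation, adjusted p = 0.0075) without iMyoD1 and reversed to 0.14 without iCdh23. The Ckm to Ckb ratio was -0.37 without iCdh23 and -1.55 without iMcam, the Eno3 to Eno1 ratio -0.28 and -0.53, none past the threshold. With the replicate block the Ckm to Ckb ratio was -1.34 with an adjusted p of 0.0762 (exact permutation), and with any library left out it was between -1.54 and -1.15 (-1.27, adjusted p = 0.0532 by exact permutation, without iCdh23 vehicle replicate 3). Depth limits Ckmt2 and Ampd1, which were at a few counts in many libraries.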

Other observations

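The myotube-enriched library with dox of replicate 1 stood apart in its transcript estimates. Eno1-201 held 42.1% of its Eno1 counts, against at most 3.34% in every other library, and Pygm-201 held 30.7% of its Pygm counts. Pfkm-202 held 91.6% of its Pfkm counts, and Ckb was at 901 CPM there, against 183 and 184 CPM in replicates 2 and 3.

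A930016O22Rik, a gene on the strand opposite Ckm that overlaps it, had 0 counts in the 6 whole cultures of 120 h. The kit named in the labels and the sources used here do not say that counting used strand, so reads of Ckm and of that gene cannot be told apart by it.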
